A study of Mus musculus with 5 samples.

Results

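Rex2, Mageb16, Pogz, Jade1, Spp1 and Tspan8 are 6 genes, outside the usual stem cell marker sets, described as high in undifferentiated Rex1-positive mouse cells. They were selected on the measured values themselves, because earlier results of these arrays put them well below Rex1 cells in the differentiated populations. Their ratios on the 3 arrays with Rex1 are therefore a description, and no test was made on them. Each gene was represented by 1 probe, and the 6 probes stand among 28845, which cover 14961 named genes and 9840 unnamed transcripts, or 24801 features in all.

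Embryoid bodies, the floating aggregates in which mouse embryonic stem cells differentiate in culture, served to follow the path to heart muscle. Total RNA came from 4 marker-positive populations: Rex1 undifferentiated stem cells at day 0, Bra early mesoderm and Flk1 cardiac mesoderm at day 4.5, and Nkx2.5 cardiac progenitors at day 7.5. The RNA was hybridised in pairs, with Cy3 and Cy5 dyes, to 5 arrays of 30000 spots: Bra, Flk1 and Nkx2.5 (Cy5) each against Rex1 (Cy3), and Nkx2.5 (Cy5) against Bra and against Flk1 (Cy3). Each pair had 1 array, with no exchange of dyes and no second sample, so no p-value can be given. The sources used here do not name the cell line, the way in which marker-positive cells were isolated or the number of cultures behind each RNA.

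Stem cells hold many genes active that are silenced or turned down once they leave the undifferentiated state. The best known of these encode the transcription factors of the pluripotency network, with Oct4 and Sox2 at its centre, but the loss also takes in chromatin proteins, secreted proteins and cell surface proteins. Rex2 ("reduced expression 2") is a zinc finger gene whose name follows that of Rex1 (gene Zfp42), the marker used for the undifferentiated cells. Mageb16 is an X-linked member of the MAGE family, whose proteins bind ubiquitin ligases. Pogz encodes a zinc finger protein with a transposase-derived domain that binds the heterochromatin protein HP1, and Jade1 a PHD finger scaffold of the HBO1 histone acetyltransferase complex. Spp1 encodes osteopontin, a secreted phosphoprotein that binds integrins, and Tspan8 a tetraspanin of the cell surface.

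The identity of the probes limits some of these names. Pogz and Rex2 carried their present symbols in the files, and Spp1 was matched through its RefSeq accession. Mageb16 was listed as 2410003J06Rik, Jade1 as Phf17 and Tspan8 as Tm4sf3, all older names that lead to a single gene. In the GRCm38.p6 gene table, Rex2 lies at chr4:146973610-147060799 within a cluster of closely related zinc finger genes, so its probe may also read relatives. Mageb16 lies at chrX:79623231-79671435 and has a pseudogene copy with which signal could be shared. Pogz lies at chr3:94822989-94883577, Jade1 at chr3:41555734-41616864, Spp1 at chr5:104435111-104441053 and Tspan8 at chr10:115816817-115849893.

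Promoter sequence was searched because the 6 genes stood low together on the arrays with Rex1. RefSeq start sites (GRCm38.p6) gave 10 windows of 250 bases upstream of the starts of the 6 genes: 4 for Jade1, 2 for Spp1 and 1 for each of the others. The motifs were the octamer ATGCAAAT that Oct4 binds, the Sox motif CTTTGT, the Esrrb motif TCAAGGTCA, the Klf motif CCACCC, the GC box GGGCGG, the E box CACGTG and the TATA box TATAAA, on both strands. The octamer stood in 1 window each of Mageb16, Spp1 and Tspan8, against 1.6% of 32851 mouse windows. That share is per window, and genes with several starts had more windows. In Spp1 only the window of the second start held it. These windows are printed below 5′ to 3′ on the strand of the gene, with that of Rex2 for its Sox motif; capitals mark every match, and touching or overlapping matches form a single run of capitals.

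Mageb16, minus strand, chrX:79671436-79671685: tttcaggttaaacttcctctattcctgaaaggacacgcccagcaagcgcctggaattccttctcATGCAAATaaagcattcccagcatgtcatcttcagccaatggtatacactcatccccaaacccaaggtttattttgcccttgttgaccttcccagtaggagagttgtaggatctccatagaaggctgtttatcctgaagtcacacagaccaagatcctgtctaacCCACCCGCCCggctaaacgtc

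Spp1, start 2, plus strand, chr5:104435942-104436191: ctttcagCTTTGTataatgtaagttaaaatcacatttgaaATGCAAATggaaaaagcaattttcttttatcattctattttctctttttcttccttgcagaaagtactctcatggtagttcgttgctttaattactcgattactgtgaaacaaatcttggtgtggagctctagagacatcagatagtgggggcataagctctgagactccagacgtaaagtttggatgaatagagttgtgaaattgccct

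Tspan8, plus strand, chr10:115817034-115817283: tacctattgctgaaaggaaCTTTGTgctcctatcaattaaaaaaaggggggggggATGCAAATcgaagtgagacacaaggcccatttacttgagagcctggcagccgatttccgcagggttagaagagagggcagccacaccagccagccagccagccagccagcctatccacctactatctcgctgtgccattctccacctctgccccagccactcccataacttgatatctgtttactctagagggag

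Rex2, plus strand, chr4:147021600-147021849: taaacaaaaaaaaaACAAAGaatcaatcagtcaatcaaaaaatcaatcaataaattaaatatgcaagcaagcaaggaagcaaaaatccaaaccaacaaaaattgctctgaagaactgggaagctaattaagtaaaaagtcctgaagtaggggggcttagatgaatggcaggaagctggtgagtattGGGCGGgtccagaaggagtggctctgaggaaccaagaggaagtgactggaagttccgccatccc

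The octamer began 186 bases before the start of Mageb16, 210 before the second start of Spp1 and 195 before that of Tspan8, each time on the strand of the gene. In Spp1 and Tspan8 a Sox motif stood further upstream, at 243 and 231 bases, and Rex2 carried its Sox motif on the other strand at 236. The Sox motif was in 16.5% of all windows. Rex2, Mageb16, Pogz and all 4 windows of Jade1 held a GC box, as did 32.7% of windows; in Mageb16 and in the first window of Jade1 it overlapped a Klf motif. The Klf motif was also in 3 of the 4 windows of Jade1 (28.1% of all windows). The fourth window of Jade1 held an E box (6.02% of all windows) and the first of Spp1 a TATA box (12.4%), and no window of the 6 genes held the Esrrb motif (0.387%). The windows of Jade1 had between 61.6% and 69.2% G and C, above the median of 52.4% over all windows, whereas the second window of Spp1 had 35.6% and that of Rex2 40.4%. A match is a string of letters only, and no binding was measured here.

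The signals behind the ratios were of moderate strength. A signal was called well above background where it exceeded percentile 95 of the 96 negative control spots of that channel. All 60 channel signals of the 6 genes did so, at 1.13 to 8.71 times that limit, and 0 were saturated. Over all probes, between 77.6% and 95.2% passed on an array and channel. The lowest signal, 1.13 times the limit, was that of Mageb16 in Nkx2.5 cells on the array against Rex1, so the size of that ratio rests on a signal close to background.

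Pairs that close a triangle allow each comparison to be read in a further way beside its own array, the direct reading: a second reading adds or subtracts the remaining arrays. For Bra over Rex1 the second reading is the log2 ratio Nkx2.5 over Rex1 minus Nkx2.5 over Bra, which also removes any dye bias of a probe that stays constant between arrays. The same holds for Flk1 over Rex1. In Nkx2.5 over Rex1 the sums through Bra and through Flk1 were averaged, and there such bias does not cancel. The gap between the readings over all features gave an error of 0.24 for the log2 ratio of 1 array. It was drawn from hybridisations of the same 4 populations, so it may leave out variation between cultures. A gene was counted as lower or higher if its direct and second log2 ratios were each at least 1 in size, that is 2-fold, with the brighter population well above background.

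The population markers served as a check of the labels. Zfp42 was lower in Bra (log2 ratio -1.74 direct, -1.19 second), Flk1 (-1.76, -1.18) and Nkx2.5 cells (-1.68, -2.25) than in Rex1 cells. T, the gene of Brachyury, read 1.07 and 0.73 in Bra over Rex1, Kdr, the gene of Flk1, read 0.68 and 0.64 in Flk1 over Rex1, and Nkx2-5 read 0.53 and 0.91 in Nkx2.5 over Rex1. These 3 genes stood on the side that their labels name, but none reached 2-fold in both readings.

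By that rule 6 of the 6 genes were lower in Bra than in Rex1 cells, where 0.222% of all features were lower. In Flk1 over Rex1 the count was also 6 of 6, against 0.266% of features. In Nkx2.5 over Rex1 it was 5 of 6, against 0.702%, and the exception was Tspan8. The genes were chosen on these arrays, so the counts say only how well the choice holds under the stricter rule of 2 readings. In RNA from a whole population, fewer cells with a transcript and less transcript per cell cannot be told apart. Their median log2 ratio was -2.04 in Bra over Rex1, -1.93 in Flk1 over Rex1 and -1.96 in Nkx2.5 over Rex1, while the median of all features was 0.005, 0.005 and 0.008.

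**Figure D1:**
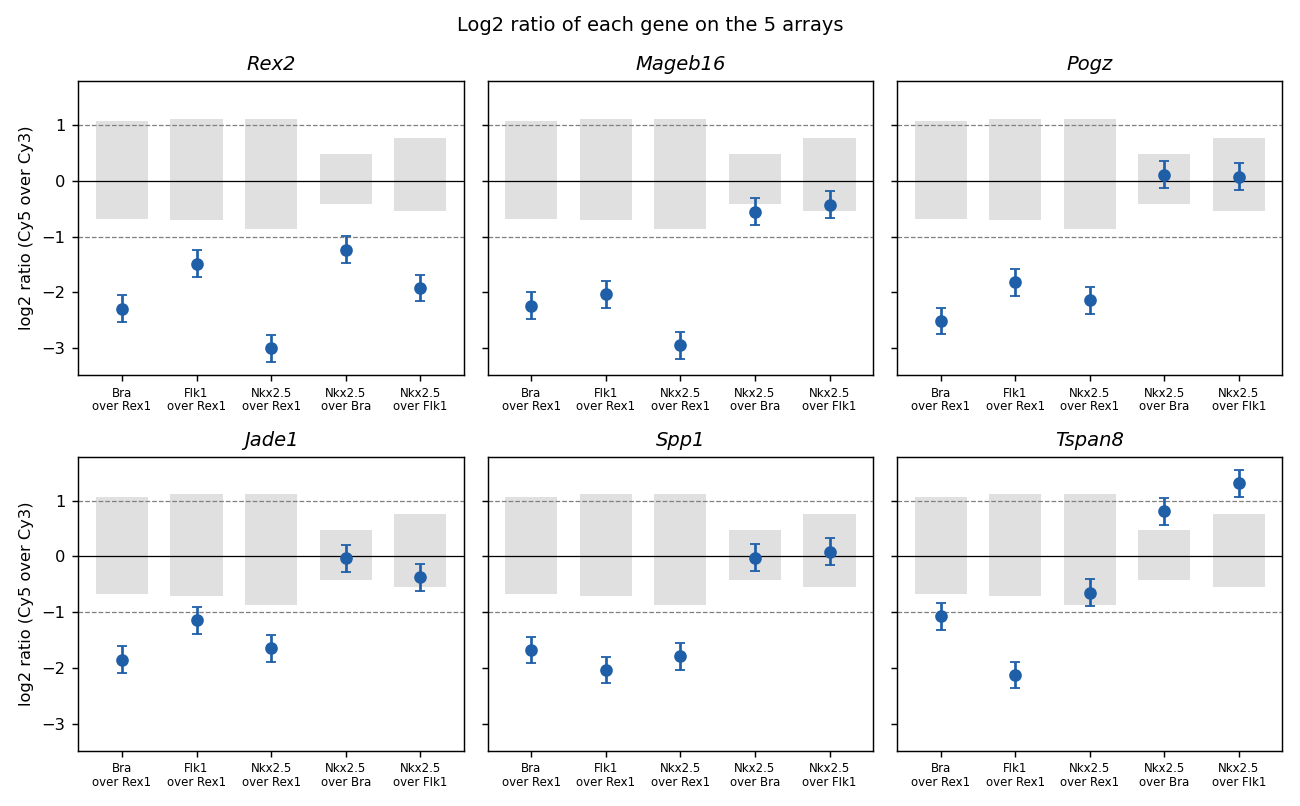
Log2 ratio (Cy5 over Cy3) of each of the 6 genes on the 5 arrays, with bars of 0.24 for the error of 1 array; grey boxes span the middle 95% of all features and dashed lines mark 2-fold. Each gene lies below 0 on the arrays with Rex1, while on the arrays of Nkx2.5 against mesoderm Rex2 lies at -1.24 and -1.92 and Tspan8 at 0.81 and 1.31.

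Rex2 stood at a different level in each population. Its log2 ratio was -2.29 in Bra over Rex1, -1.48 in Flk1 over Rex1 and -3.00 in Nkx2.5 over Rex1, with second readings of -1.76, -1.08 and -3.47. On the arrays of Nkx2.5 cells against mesoderm, which played no part in the choice, it was -1.24 over Bra and -1.92 over Flk1. The value over Flk1 was the lowest of all 24801 features on that array. Rex2 RNA was therefore 8.0-fold lower in Nkx2.5 than in Rex1 cells by the direct reading, and it was lower in Nkx2.5 than in Flk1 cells. This further fall from Flk1 to Nkx2.5 passed in both readings (second -1.52), whereas the value over Bra did not (second -0.71).

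The levels of the Rex2 probe gave the same order. Here a level is the log2 intensity of a channel after normalisation between arrays. It was 13.30, 13.34 and 13.02 in Rex1 cells, 11.82 and 11.86 in Flk1, 11.25 and 11.01 in Bra and 10.02, 10.02 and 9.89 in Nkx2.5 cells. No populations overlapped, although Flk1 and Bra did when each array was scaled alone. Flk1 stood above Bra by both routes, at a log2 difference of 0.81 through Rex1 and 0.69 through Nkx2.5, which is short of 2-fold. By the rule of 2 readings 0 of the 6 genes were lower in Flk1 than in Bra, against 0.00403% of features, and 0 were higher, against 0.0202%.

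Mageb16 also read lowest in progenitors, and like Rex2 it was more than 2-fold lower than in Rex1 cells already at day 4.5. The log2 ratio was -2.24 in Bra, -2.04 in Flk1 and -2.95 in Nkx2.5 cells over Rex1, and the second readings were -2.39, -2.51 and -2.63. Nkx2.5 cells then read -0.55 against Bra and -0.43 against Flk1, with second readings of -0.71 and -0.91. All 4 of these values were below 0 and none reached 2-fold. Its levels were 12.66, 12.20 and 12.18 in Rex1, 10.57 and 10.42 in Bra, 10.16 and 10.17 in Flk1 and 9.24, 10.02 and 9.73 in Nkx2.5 cells. The 4 ranges did not overlap after normalisation between arrays. With each array scaled alone Bra (10.20 to 11.08), Flk1 (9.99 to 10.30) and Nkx2.5 (9.02 to 10.53) all overlapped one another.

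Pogz was lower in every differentiated population than in Rex1 cells, and no difference among these populations reached 2-fold. The log2 ratio was -2.51 in Bra, -1.82 in Flk1 and -2.14 in Nkx2.5 cells over Rex1, with second readings of -2.25, -2.21 and -2.08. In Bra over Rex1 only 1 feature lay lower than Pogz on the direct array. Nkx2.5 cells read 0.10 against Bra and 0.07 against Flk1, both within the error of 1 array, with second readings of 0.37 and -0.32. Levels were 13.55, 13.56 and 13.66 in Rex1 cells, against 11.13 and 11.04 in Bra, 10.75 and 11.74 in Flk1 and 11.52, 11.23 and 10.83 in Nkx2.5 cells. The Rex1 values stood 1.81 above the highest of the others, and the other populations could not be ordered because neighbours overlapped.

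Jade1, the second chromatin gene of the set, moved less. Its log2 ratio was -1.85 in Bra, -1.15 in Flk1 and -1.65 in Nkx2.5 cells over Rex1, and the second readings were -1.62, -1.27 and -1.71. Nkx2.5 cells read -0.03 against Bra and -0.38 against Flk1, with second readings of 0.21 and -0.50. Levels were 12.70, 12.56 and 12.59 in Rex1, 11.53 and 11.41 in Flk1, 10.94, 10.35 and 11.16 in Nkx2.5 and 10.38 and 10.85 in Bra cells. Flk1 cells thus kept more Jade1 signal than the other differentiated cells in these levels, and Bra and Nkx2.5 overlapped. With each array scaled alone Flk1 and Nkx2.5 overlapped as well, and the Flk1 over Bra difference, 0.71 through Rex1 and 0.35 through Nkx2.5, was short of 2-fold.

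Spp1 gave the closest agreement between readings. The log2 ratio was -1.68 in Bra, -2.04 in Flk1 and -1.79 in Nkx2.5 cells over Rex1, with second readings of -1.77, -1.88 and -1.83, so that no gap in these comparisons exceeded 0.16. Nkx2.5 cells read -0.02 against Bra and 0.09 against Flk1, with second readings of -0.11 and 0.25. Osteopontin RNA was thus between 3.2-fold and 4.1-fold lower in all 3 differentiated populations on the direct arrays, with little difference among them. Levels were 13.69, 13.49 and 13.57 in Rex1, 11.43 and 12.01 in Bra, 11.78, 11.41 and 11.30 in Nkx2.5 and 11.22 and 11.45 in Flk1 cells. The Rex1 values lay apart from the rest, and the Nkx2.5 range overlapped those of both mesoderm populations.

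Tspan8 departed from the description under which it was chosen. Its log2 ratio was -1.08 in Bra and -2.13 in Flk1 over Rex1, with second readings of -1.46 and -1.96. In Nkx2.5 over Rex1 it was only -0.65, with -0.54 as the second reading, and 1322 features lay lower on the direct array. Against mesoderm, Nkx2.5 cells were on the high side, at 0.81 over Bra (second 0.42) and 1.31 over Flk1 (second 1.47). The value over Flk1 passed the rule and lay above 99.5% of all features. Tspan8 was therefore more than 2-fold lower than in Rex1 cells at day 4.5. At day 7.5 it was lower by less, 1.57-fold by the direct and 1.46-fold by the second reading. Flk1 over Bra did not pass the rule, at -1.05 through Rex1 and -0.50 through Nkx2.5, and their levels overlapped.

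The levels of the Tspan8 probe overlapped between day 0 and day 7.5. They were 11.82, 12.28 and 12.25 in Rex1 and 11.60, 11.79 and 12.15 in Nkx2.5 cells, against 10.98 and 10.74 in Bra and 10.85 and 10.16 in Flk1 cells. The mean of Nkx2.5 minus that of Rex1 was -0.27 here and 0.07 when each array was scaled alone, so the order of the mean levels depended on the scaling. On the array that paired these populations, Nkx2.5 cells read below Rex1 cells under each way of processing, at log2 ratios between -0.66 and -0.22.

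**Figure D2:**
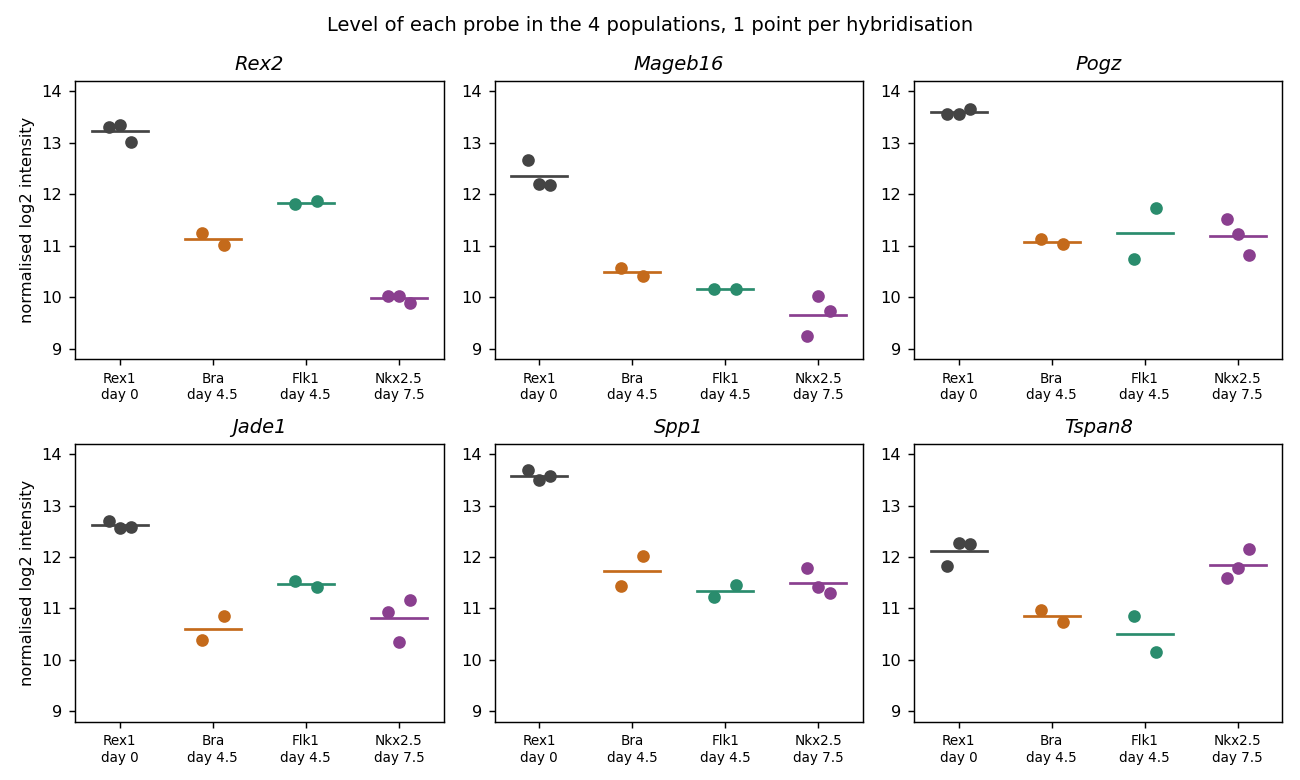
Normalised log2 intensity of each probe in Rex1, Bra, Flk1 and Nkx2.5 cells, with 1 point per hybridisation and a line at the mean. Rex1 points lie above all others for each gene except Tspan8, where the Nkx2.5 points (11.60 to 12.15) overlap those of Rex1 (11.82 to 12.28); heights are not comparable between probes.

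The direct ratios of Nkx2.5 to mesoderm come from arrays outside the choice, but their second readings are differences of the arrays on which the genes were chosen, so the counts that follow rest partly on those values. In Nkx2.5 over Bra, 0 of the 6 were lower, against 0.0605% of features, and 0 were higher, against 0.274%. In Nkx2.5 over Flk1, 1 of the 6, Rex2, was lower, against 0.0847%, and 1, Tspan8, was higher, against 0.298%. Between these, Mageb16 leaned below 0 while Pogz, Jade1 and Spp1 had direct ratios between -0.38 and 0.10. The distance between genes over the 5 ratios put Pogz and Spp1 closest, at 0.94, and Rex2 and Tspan8 farthest apart, at 4.69. These ratios share populations and RNA between arrays, so the distances are a description.

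The rule of 2 readings in all 3 comparisons with Rex1 took 32 features, or 0.129% of all, of which 18 were named and 14 unnamed. Of the 6 genes 5 were among them. By the weakest of its 6 readings Mageb16 ranked 2, Pogz 3, Spp1 7, Jade1 22 and Rex2 26 among the 32. Rex2 came late because of its second reading in Flk1 cells, -1.08. Tspan8 fell outside, through its -0.54 in Nkx2.5 cells. Just outside 2-fold lay Zbtb43, Zfp524 and Gpx2-ps1, each with a weakest reading of -0.98, and Xlr3a at -0.97.

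**Figure D3:**
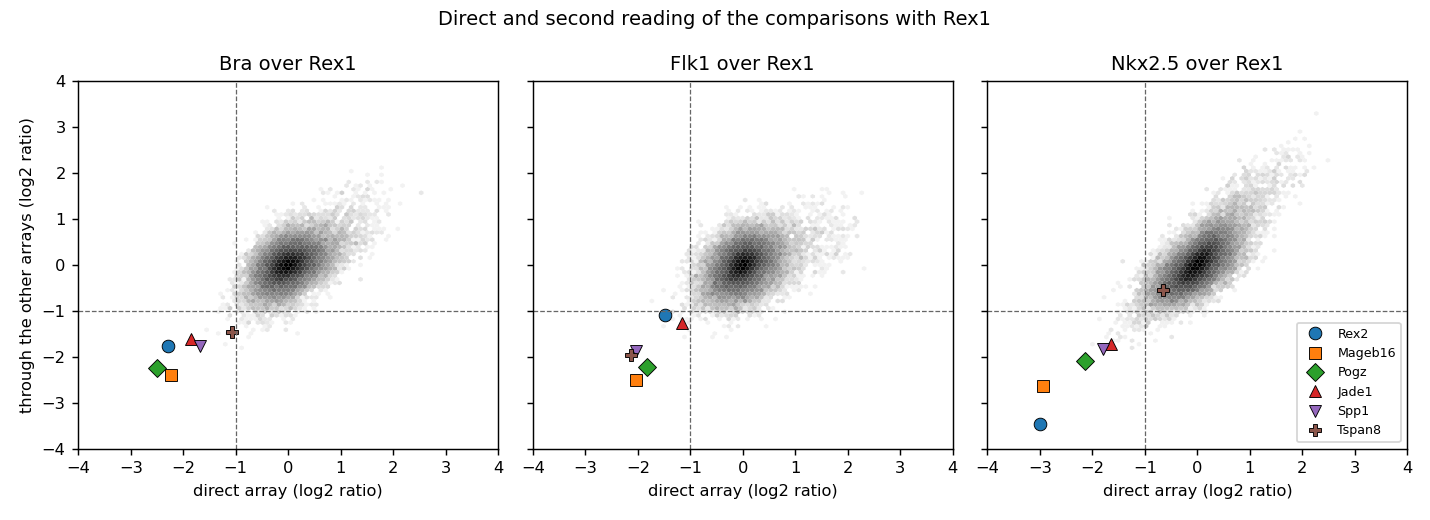
Direct reading (horizontal) against second reading (vertical) of the log2 ratio in Bra, Flk1 and Nkx2.5 over Rex1, for all 24801 features (grey, darker where denser) and the 6 genes (symbols); dashed lines mark 2-fold lower. The 6 genes lie in the lower left corner in Bra and Flk1 over Rex1, and Tspan8 lies outside it in Nkx2.5 over Rex1 at -0.65 and -0.54.

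The size of these ratios depended on the background correction more than on any other step. The scanner background was high, with a median of 8148 intensity units in Cy3 on the Bra over Rex1 array against a median net signal of 2561. With the uncorrected signals all 18 direct ratios to Rex1 stayed below 0 but shrank to between -1.07 (Pogz) and -0.22 (Tspan8), and the genes counted as lower fell from 6, 6 and 5 to 0, 0 and 1, the last being Pogz. On the same signals the ratio in Nkx2.5 over Flk1 was -0.56 for Rex2 and 0.43 for Tspan8, so those calls ended too. The SD of all features shrank too, from 0.416 to 0.11 on the Bra over Rex1 array. In the uncorrected ranking Pogz was the lowest of all features on each array with Rex1. The deposited series table ended 4 calls: Tspan8 in Bra over Rex1 (-0.81 direct) and in Nkx2.5 over Flk1 (0.94 direct), and Jade1 (-0.98 direct) and Rex2 (-0.98 second) in Flk1 over Rex1. Background subtraction without normexp ended the same 4, at -0.78 and 0.96 for Tspan8, -0.96 for Jade1 and -0.98 for Rex2.

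**Figure D4:**
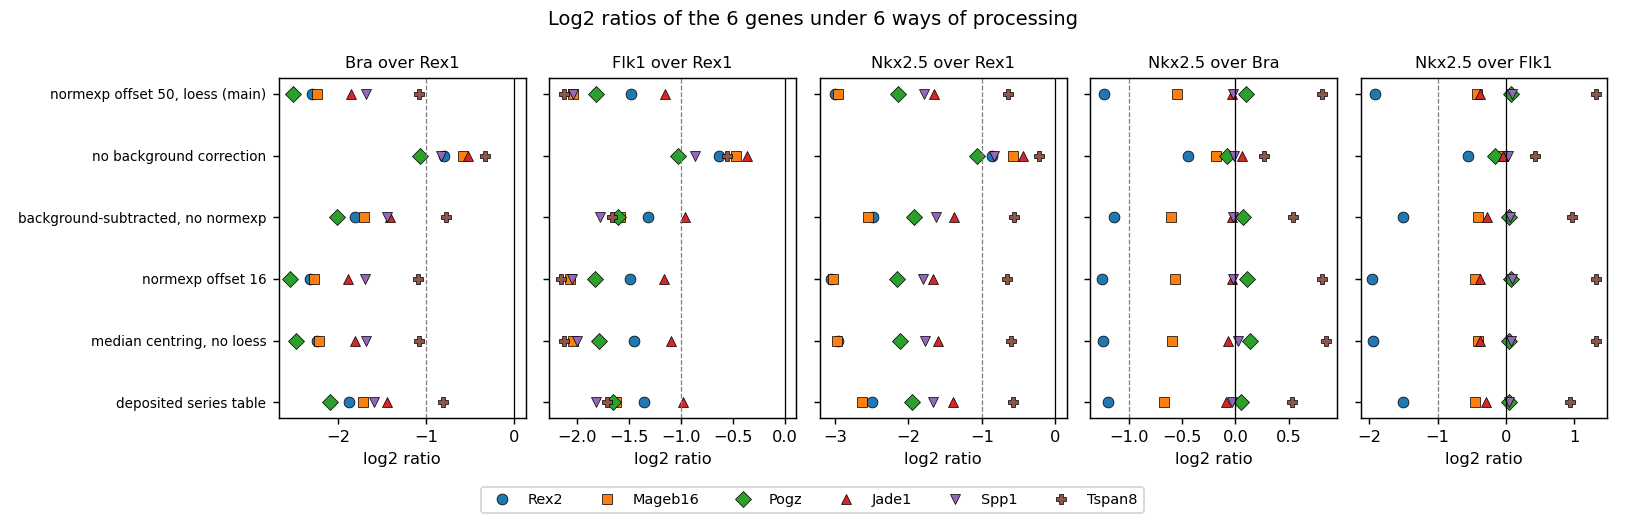
Log2 ratios of the 6 genes (symbols) on each of the 5 arrays under 6 ways of processing (rows); the solid line marks 0 and the dashed line 2-fold lower. Without background correction the ratios to Rex1 contract to between -1.07 and -0.22 and stay below 0, while the remaining rows differ less from the first.

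Relatives and partners of the 6 genes, taken from lists by function, mostly did not move with them. Of the zinc finger genes in the Rex2 cluster only 2 of the others were on the array, and both were lower in Nkx2.5 over Rex1: Zfp979 at -1.76 (second -1.77) and Znf41-ps at -1.25 (second -1.36). Zfp979 was also lower in Nkx2.5 over Flk1, at -1.16 and -1.06, as Rex2 was. Neither reached 2-fold in Bra or Flk1 over Rex1, where their medians were -0.86 and -0.78. Without background correction neither passed in any comparison, and in Nkx2.5 over Rex1 Zfp979 read -0.82 and Znf41-ps -0.58. These probes read related sequences, and cross-hybridisation was not tested.

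Among 15 genes listed with Mageb16, all of the MAGE family except the ubiquitin ligase Trim28, 0 were lower than in Rex1 cells in any comparison, and Maged2 was higher in Bra (1.08, second 1.01) and Nkx2.5 cells (1.39, second 1.19). Of all features 1.15% were higher in Bra, 0.685% in Flk1 and 2.42% in Nkx2.5 than in Rex1 cells. The direct medians of the MAGE list over Rex1 were 0.01, -0.05 and 0.04. Of 20 heterochromatin genes and HP1 partners listed with Pogz 0 were lower, and Adnp, a zinc finger protein that also binds HP1, was higher in Nkx2.5 cells (1.15, second 1.07). Of the 15 genes in the list of Jade1 only 9 were on the array, Jade1 included. The other 8 were Kat6b, Kat5, Ing4, Ing5, Meaf6 and Brpf1, of the HBO1, MOZ and TIP60 acetyltransferase complexes, and its partners Vhl and Nphp4. Of these 8, 0 were lower and 0 higher, and the rest of the list was not measured. The list medians lay between -0.15 and 0.12 in the 3 comparisons with Rex1 for these chromatin lists, close to the median of all features.

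Of 19 osteopontin relatives, receptors and proteases 0 were lower than in Rex1 cells, and the direct medians were 0.01, 0.12 and 0.10. Itga4, an integrin subunit, read -1.57 and -0.96 in Nkx2.5 over Rex1 and passed as lower with median centring (-1.64, -1.05), in the deposited series table (-1.46, -1.18) and after background subtraction without normexp (-1.35, -1.04). Itgav and Itgb5, which encode integrin subunits that bind osteopontin, were higher in Nkx2.5 cells, Itgav at 1.59 (second 2.61) and Itgb5 at 1.33 (second 1.19). Itgav was also higher in Bra cells (1.68, second 1.09), but its signal was not well above background in Rex1 cells on any of the 3 arrays, which leaves it at least 1.02-fold higher in Bra and at least 1.35-fold in Nkx2.5 cells. Such a bound sets the mean level of the brighter population against the lowest signal well above background in the dimmer one, and it is open to dye bias. Of 32 tetraspanins and partners other than Tspan8 again 0 were lower, with direct medians of 0.15, 0.03 and 0.13. Itga3, an integrin subunit that associates with tetraspanins, was higher in Bra (2.34, second 1.65), Flk1 (1.40, second 1.17) and Nkx2.5 cells (1.88, second 2.33). The probe used was well above background in Rex1 cells on only 1 of the 3 arrays, and the other probe read 0.33 in Nkx2.5 over Rex1. With the mean of its probes the calls in Bra (1.10, second 0.76) and Flk1 cells (0.64, second 0.58) ended. The tight junction gene Cldn7 was higher in Nkx2.5 cells at 1.15 (second 1.33). In the deposited series table Maged2, Adnp, Itgb5 and Cldn7 no longer passed in any comparison with Rex1, nor did Itgav in Bra, Itga3 in Flk1, or Zfp979 in Nkx2.5 over Flk1. With no background correction Maged2, Adnp, Itgav, Itgb5, Itga3 and Cldn7 passed in no comparison with Rex1. In Nkx2.5 over Rex1 Adnp then read -0.08 (second -0.10), Itga3 0.03 (second -0.09) and Itgav 0.03 (second 0.10). Itgb5 read 0.06 (second 0.15), Maged2 0.11 (second 0.06) and Cldn7 0.50 (second 0.70).

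The pluripotency list gave a different picture. Of its 29 genes on the array 5 were lower in Bra, 6 in Flk1 and 8 in Nkx2.5 than in Rex1 cells. Direct medians were -0.37, -0.36 and -0.63. The other 24, 23 and 21 genes were neither lower nor higher. Oct4 (gene Pou5f1) read -0.05, -0.11 and -0.37 over Rex1. Sox2 read -0.86, -0.90 and -0.91, with second readings of -0.88, -0.68 and -1.01. Nanog read 0.84, 0.08 and -1.76, with second readings of -0.31, -0.81 and -0.73, so none of these 3 passed over Rex1. Of the genes that were lower, those with the largest smaller reading were Dppa2, Fbxo15, Gdf3 and Tdh. Fbxo15 (-2.65, -2.25 and -2.49 over Rex1) and Tdh, a threonine dehydrogenase of mouse stem cells (-1.60, -1.70 and -1.80), were low at day 4.5. Dppa2 read -1.43, -1.11 and -3.38 on the same arrays. Gdf3 read -1.55, -1.39 and -2.20, with second readings of -0.65, -0.83 and -2.93, so it passed in Nkx2.5 over Rex1 alone. In Nkx2.5 over Bra 2 of the list were lower, Dppa2 and Nanog (-1.44, second -2.60), and in Nkx2.5 over Flk1 1, Dppa2; Nanog is named here after its values were seen. In the deposited series table neither passed in Nkx2.5 over Bra (-0.72 and -0.96 direct). Without background correction no gene of the list passed in any comparison. In Nkx2.5 over Rex1 Dppa2 then read -0.87 (second -1.03), Fbxo15 -0.80 (second -0.97), Gdf3 -0.81 (second -1.16) and Tdh -0.95 (second -1.10).

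A search of 11794 named genes for profiles most like those of the 6 returned several genes of this list. Likeness was the Euclidean distance over the 5 log2 ratios, where 0 is identity. The arrays with Rex1, on which the 6 were chosen, supply 3 of these ratios. Near profiles are therefore largely bound to be low over Rex1 too, so the search is a description and cannot show a tie to pluripotency genes. For Rex2 the nearest were Dppa2, at 1.03, and Gdf3, at 1.26; in Nkx2.5 cells Dppa2 read -1.09 over Bra and -1.82 over Flk1. For Mageb16 they were Fbxo15, at 0.70, and Tdh, at 1.37. For Pogz they were Tcl1 (0.94) and Khdc3 (0.96), for Jade1 Dapp1 (0.39) and Tcl1 (0.54), and for Spp1 Vmn2r37 (0.58) and Khdc3 (0.69). For Tspan8 they were Cpox (1.15) and Sfn (1.21), and for Sfn the description in the file names another gene. The mean profile of the 6 was nearest to Morc1 (0.56), Zfp42 (0.60), Tdh (0.62), Tcl1 (0.67), Vmn2r37 (0.76), Manba (0.80), Dapp1 (0.86) and Khdc3 (0.87).

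Markers of other cell types were read beside the higher value of Tspan8 in Nkx2.5 than in Flk1 cells, since this gene is also found in epithelia. Of 16 genes of primitive and visceral endoderm 1 was higher in Bra (Sox17), 0 in Flk1 and 5 in Nkx2.5 than in Rex1 cells, and 1, Ttr, was higher in Nkx2.5 than in Flk1 cells (1.55, second 2.04). In the comparison with Rex1 Afp led at 2.60 (second 3.33), followed by Col4a1 at 1.86 (second 2.99), Ttr at 1.98 (second 1.83) and Sox17 at 1.34 (second 1.82). Gata4, Afp and Cubn were not well above background in Rex1 cells on any array, nor Gata4 in Bra cells, which leaves Afp at least 6.9-fold higher in Nkx2.5 cells, and the other probes of Col4a1 ran from -0.61 to 0.86. The summed intensity of the 16 was 60442 to 67179 in Rex1, 70623 to 74520 in Bra, 76382 to 77383 in Flk1 and 103550 to 107938 in Nkx2.5 cells. A sum gives most weight to the brightest probes. The direct median of the 16 was 0.26 (second 0.35) in Nkx2.5 over Rex1, where 11 were neither lower nor higher. Over Flk1 it was 0.19 (second 0.12). Of 11 trophoblast genes 2, the keratins Krt8 and Krt18, were higher in Nkx2.5 than in Rex1 cells, and 1, Krt18, was higher in Nkx2.5 than in Flk1 cells (1.06, second 1.07). The summed intensity of the 11 was 39574 to 46039 in Rex1, 53955 to 54592 in Bra, 48835 to 49405 in Flk1 and 66763 to 70172 in Nkx2.5 cells. Their direct median was 0.01 (second 0.06) in Nkx2.5 over Rex1, where 9 were neither lower nor higher. Over Flk1 it was -0.08 (second -0.17), and 10 were neither, so the list as a whole did not rise. Of 11 fibroblast feeder, 9 macrophage and 7 germ cell markers 0 were lower or higher in any comparison. In the deposited series table Sox17 in Bra over Rex1, Cubn in Nkx2.5 over Rex1 and Krt18 in Nkx2.5 over Flk1 no longer passed. Without background correction no endoderm or trophoblast gene passed in these comparisons. In Nkx2.5 over Rex1 Afp then read 0.41, Col4a1 0.32, Cubn 0.21, Sox17 0.10, Ttr 0.99, Krt8 0.82 and Krt18 0.80. In Nkx2.5 over Flk1 Ttr read 0.97 (second 1.01) and Krt18 0.63 (second 0.75). The part of other cells in the Tspan8 signal was not tested.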

How the data were processed

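Two-colour scanner files of 5 arrays and a series table were used. Per the file headers the deposited intensity values are median signals, with a background beside each; the files showed that it had been subtracted already. The deposited ratio is the quotient of the channel intensities. The deposited log2 table held 28333 of the probes used here; each column equalled the log2 of that ratio less 1 constant per array, within 1e-06, so scale and direction were settled by the files while the choice of the constant is unknown. Its column medians over these probes were -0.0846, -0.0599, -0.0578, -0.0073 and -0.0728 for Bra, Flk1 and Nkx2.5 over Rex1 and Nkx2.5 over Bra and Flk1. Ratios run Cy5 over Cy3, per the labels. For scanner software and genome build: not given in the sources used here.

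Foreground was rebuilt as signal plus background, corrected with normexp (offset 50) and normalised by loess within arrays in limma 3.58.1 (R 4.3.3), a procedure tested on simulated data. Levels were scaled between arrays by Aquantile. Tables were made in Python 3.11.15. Control spots were left out, and spots marked Bad (190 to 1195 per array) were kept, of which 0 belonged to the 6 genes. Probes were named through the RefSeq GRCm38.p6 gene table: 8054 by accession, 5229 by symbol and 5063 by synonym; 575 kept the file's name and 9924 had none. Genes with several probes were read from the brightest. Named genes were all probes of the 6 genes, the nearest profiles (8 to their mean, 2 to each) and the 4 population markers. From each list came at most 4 genes by the smaller reading. Genes just outside 2-fold were added after their values were seen, as were Nanog, Pou5f1, Sox2 and the markers whose other probes are given. The members and the 13 lists were chosen with earlier results of these data known. The number of arrays limits the precision, and without replicates no test was made.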

Additional observations from a re-analysis of the deposited data

How the results depend on the processing

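Counts of lower genes among the 6 stayed within 1.5 times of those reported with a normexp offset of 16, median centring, the deposited series table, background subtraction without normexp and a threshold of 1.5. The 1 higher gene, Tspan8 in Nkx2.5 over Flk1, fell to 0 in the deposited table, with background subtraction without normexp, with no background correction and at a threshold of 1.5. A mean over probes changes nothing for genes with 1 probe. With no background correction the 6 genes gave 0, 0 and 1 lower in Bra, Flk1 and Nkx2.5 over Rex1 and 0 in Nkx2.5 over Flk1, and all features gave 0, 0, 3, 0, 0 and 0 in these comparisons, Nkx2.5 over Bra, Nkx2.5 over Flk1 and Flk1 over Bra. The direct array alone, with no filter on dim probes, gave 1 of the 6 genes in Nkx2.5 over Bra (Rex2) and, as a difference of arrays, 1 in Flk1 over Bra (Tspan8); all features then gave 135, 184, 402, 32, 53 and 192. For all features, background subtraction without normexp gave 34 in Bra over Rex1 (55 as reported), 40 in Flk1 over Rex1 (66), 6 in Nkx2.5 over Bra (15) and 13 in Flk1 over Bra (1). The deposited table gave 8 in Nkx2.5 over Bra and 4 in Flk1 over Bra. A threshold of 1.5 gave 14, 11 and 36 in the comparisons with Rex1, 0 in Nkx2.5 over Bra and 5 in Nkx2.5 over Flk1. Higher features numbered 286, 170, 601, 68, 74 and 5 in the 6 comparisons in the same order. They were 0, 0, 2, 3, 3 and 0 with no background correction, and 185 in Bra over Rex1 and 368 in Nkx2.5 over Rex1 with background subtraction without normexp. The deposited table gave 102, 65, 284, 42 and 37 in the first 5 comparisons, and a threshold of 1.5 gave 67, 37, 238, 25, 24 and 2. The direct array alone gave 727 in Bra and 770 in Flk1 over Rex1, 289 in Nkx2.5 over Flk1 and 182 in Flk1 over Bra. The Tspan8 level of Nkx2.5 minus Rex1 reversed from -0.27 to 0.07 without Aquantile. Of the 8 genes nearest to the mean profile 4 remained without background correction and 0 with Pearson correlation in place of distance. Apart from the filter and the threshold, the cause was not tested. With 1 array per pair, signals near background, above all Mageb16 in Nkx2.5 cells, set the limit.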

Other observations

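Besides 5 of the 6 genes, the 32 features lower in all 3 comparisons with Rex1 held 13 named genes. Of these, 5 belong to the pluripotency list: Zfp42, Dppa2, Tcl1, Tdh and Fbxo15. Of the other 8, Khdc3, of the maternal complex of early embryos, read -2.15 in Bra, -2.38 in Flk1 and -1.49 in Nkx2.5 over Rex1. Morc1, needed for transposon silencing in germ cells, read -1.82, -1.44 and -1.77. Dapp1, a signalling adaptor of immune cells, read -1.56, -1.12 and -1.66. Meig1, a gene of sperm formation, read -1.01, -1.32 and -1.70. The rest were Vmn2r37, Zfp120, Dnajc21 and 2410006F04Rik. The 14 unnamed transcripts included the strongest of the 32 by its weakest reading, -2.21. These genes were picked out after their values were seen.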
